A study of Mus musculus with 115 samples.

Results

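Macrophages are read in tissue RNA from marker genes, some of which other cells also transcribe. Taken here by their symbols in the deposited probe tables were 9 of them: Emr1, Cd68, Csf1r, Mrc1, Itgam, Itgax, Cd163, Ctss and Lgals3. They are read by 13 of the 25697 probes of each table, 3 for Emr1, 2 each for Csf1r and Cd163 and 1 for each of the others, among 18120 symbols. The rule uses symbols only, though the set was drawn up with earlier results of these data known. The tissues were inguinal fat (55 arrays) and liver (60 arrays) of mice on a C57BL/6J background, hybridised to 1-colour Illumina BeadChips. All mice carry a Y chromosome without Sry, the testis-determining gene, or no Y chromosome, and some carry Sry as a transgene, so that gonad type and sex chromosomes are inherited apart. The 4 genotypes are XX and XY-, which lack Sry and form ovaries, and XXSry and XY-Sry, which carry it and form testes. The gonads of every mouse, controls included, were removed at 75 days of age. A capsule was implanted at that time that was blank (B), held testosterone (T, 5 mM) or held estradiol (E, 50 µg), and the tissues were collected 3 weeks later. This gives 12 groups per tissue, with 5 arrays each in liver and 3 to 5 in fat. "With Sry" therefore compares mice that had testes until surgery with mice that had ovaries, and none of the groups had gonads when sampled. Mice with Sry still carried the transgene when sampled, so past gonad type and the transgene itself cannot be told apart. The labels do not say that each array is a separate mouse, so p-values measure the spread between these arrays.

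Macrophages are phagocytes that live in nearly every tissue. They depend on the receptor coded by Csf1r, whose ligands are Csf1 and Il34. In the liver they line the sinusoids as Kupffer cells, and in fat they lie between adipocytes, where many carry the scavenger receptors Mrc1 and Cd163. Emr1 (now Adgre1) codes the F4/80 antigen, a surface receptor used to stain them, and Cd68 a glycoprotein of their lysosomes. Itgam and Itgax code the integrin chains CD11b and CD11c, shared with neutrophils or dendritic cells. Ctss codes cathepsin S, a lysosomal protease of antigen presentation. Lgals3 codes galectin-3, a lectin that epithelial cells also make.

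The promoters of Cd68, Mrc1 and Itgam are shown because the marker genes were correlated across fat arrays and their lineage factor PU.1 binds a known short core. Each line holds the 250 bases before the annotated start from RefSeq (GRCm38.p6), 5′ to 3′ on the strand of the gene. They are chr11:69666171-69666420 on the minus strand for Cd68, chr2:14229164-14229413 on the plus strand for Mrc1 and chr7:128062390-128062639 on the plus strand for Itgam. Capitals mark GAGGAA, the core of PU.1 sites, or TTCCTC, the same core on the other strand.
Cd68: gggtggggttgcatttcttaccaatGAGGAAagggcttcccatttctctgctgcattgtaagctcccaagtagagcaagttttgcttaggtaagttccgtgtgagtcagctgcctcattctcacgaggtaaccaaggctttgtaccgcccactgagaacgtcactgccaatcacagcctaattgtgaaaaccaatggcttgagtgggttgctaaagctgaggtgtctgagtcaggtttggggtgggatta
Mrc1: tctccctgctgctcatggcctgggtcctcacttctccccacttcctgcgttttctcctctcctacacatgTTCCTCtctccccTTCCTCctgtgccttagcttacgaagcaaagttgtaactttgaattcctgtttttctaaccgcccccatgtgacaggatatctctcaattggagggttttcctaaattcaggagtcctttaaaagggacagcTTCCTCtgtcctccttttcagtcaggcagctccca
Itgam: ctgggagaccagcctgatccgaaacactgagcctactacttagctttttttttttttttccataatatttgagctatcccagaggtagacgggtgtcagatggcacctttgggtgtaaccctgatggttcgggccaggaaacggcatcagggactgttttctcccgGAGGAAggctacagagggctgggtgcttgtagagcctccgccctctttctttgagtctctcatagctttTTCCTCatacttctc
The core begins at -225 in Cd68, at -180, -167 and -35 in Mrc1 and at -84 and -15 in Itgam, counted from the start of the gene. Promoters of 7 of the 9 members were matched by symbol, without Emr1 and Csf1r. The core lay in 4 of the 7 (also in Ctss), against 23.25% of the 32851 mouse promoter windows of this length. The palindromic estrogen response element (GGTCA, any 3 bases, TGACC), searched on both strands, lay in 0 of the 7 and in 0.06% of all windows. These matches describe letters in these windows and show no binding.

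A probe counted as detected on an array where its deposited detection p was under 0.01, and it was tested where that held in at least 3 fat or 5 liver arrays. Levels below are log2 intensities after background correction, an added offset of 16 and quantile normalisation, so differences of dim probes are understated. Of the members, 12 probes of 8 genes passed in fat and 10 probes of 7 genes in liver. Itgax was detected on 0 of 55 fat and 0 of 60 liver arrays, and Itgam on 15 fat and 0 liver arrays, so neither gives a liver value and Itgax gives none at all. Probes detected on few arrays passed through the arm where they are high, so a count over them supports nothing. Counts are therefore led by the well-detected members, those detected on at least 50% of a tissue's arrays, a limit set after the data were seen. These are 9 probes of 7 genes in fat and 8 probes of 7 genes in liver. Outside it lay, in fat, Itgam, 1 Emr1 probe and 1 Cd163 probe and, in liver, the same Emr1 probe and the dimmer Csf1r probe, which are described by the arrays that detected them. Cd68, Mrc1 and Lgals3 were detected on all 55 fat arrays and on 58, 60 and 60 liver arrays. Csf1r was detected on all 55 and 60 arrays, Emr1 by its brightest probe on 55 fat and 50 liver arrays, Cd163 on 55 and 45, and Ctss on 54 and 53. Where a gene has several probes the one with the highest mean in the tissue is given first, and no level is set against that of another probe.

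Array medians of the deposited intensity ran from 130 to 230 in fat and from 124 to 159 in liver, and the share of probes detected from 40.3% to 49.0% and from 31.8% to 41.0%. All 5 adipocyte genes examined were detected on all 55 fat arrays and all 5 hepatocyte genes on all 60 liver arrays, while the hepatocyte genes were detected on 5 (Alb) to 36 (Apoa1) of the 55 fat arrays and the adipocyte genes on 0 (Adipoq, Cidec and Plin1) to 21 (Lep) of the 60 liver arrays. No pair of arrays held identical values in either tissue. In liver, the array labelled XY-Sry T replicate 5 had Xist at 6.63 and the Y-linked Eif2s3y at 4.53, the levels of the XX arrays (6.35 to 7.40 and 4.32 to 4.96). The liver array labelled XY- E replicate 5 had the testosterone-dependent gene Hsd3b5 at 12.26, where the other estradiol arrays lay between 4.50 and 11.19 and the testosterone arrays between 11.15 and 12.95. The labels of 1 fat array, XX E replicate 1, name both testosterone and estradiol. Its Greb1, a gene induced by estrogen, stood at 9.22. The remaining XX E arrays ran from 9.13 to 9.30 and those of XX T from 4.78 to 5.94, and it was kept as estradiol. These 3 arrays are kept in the values below unless a sentence says otherwise. Without the fat array, the called member probes numbered 10 for estradiol, 2 for testosterone and 0 for Sry, sex chromosomes and interactions. Without both liver arrays they numbered 8 for Sry, 5 for testosterone, 7 for estradiol and 0 for sex chromosomes and interactions. The counts of correlated pairs within groups were again 18 of 28 in fat and 7 of 21 in liver.

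In fat, the macrophage markers were higher under estradiol than under the blank capsule. Benjamini-Hochberg adjusted p (limma, over all 14636 tested probes) was under 0.05 for 9 of the 9 well-detected probes (7 genes). Over all tested probes 20.5% passed in either direction and 10.4% as higher, and over the 11459 well-detected probes 11.1% as higher. The median difference of the 9 probes was 1.13, against -0.02 for those 11459. The other 3 probes were also called, but were detected on 0 or 1 of 17 blank arrays and on 5 to 12 of 19 estradiol arrays, so the total of 12 of 12 is not read further. In bulk tissue a larger number of macrophages and more RNA per macrophage cannot be told apart.

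Emr1 in fat ran from 6.81 to 8.94 with a median of 7.65 in the 17 blank arrays and from 7.93 to 9.66 with a median of 9.02 in the 19 estradiol arrays. All 19 estradiol arrays lay above the blank median, though the ranges overlapped. The means were 7.68 ± 0.56 (SD, n = 17) and 8.94 ± 0.55 (SD, n = 19), a difference of 1.26 ± 0.18 (SE) or 2.40-fold (limma adjusted p = 6.03e-07). A second Emr1 probe gave a difference of 1.32, and the third was detected on 1 blank and 12 estradiol arrays. By genotype, Emr1 stood at 7.34, 7.81 and 8.12 in the 3 XX B arrays and at 8.75, 8.89, 9.16, 9.56 and 9.57 in the 5 XX E arrays, which do not overlap. XXSry gave 6.82, 7.64, 7.65, 7.82 and 7.999 under blank and 8.24, 8.57, 9.49 and 9.66 under estradiol, again apart. In XY- the blank arrays read 6.81, 7.01, 8.11, 8.15 and 8.94 and the estradiol arrays 7.93, 8.22, 8.87, 9.12 and 9.56. XY-Sry had 7.24, 7.34, 7.48 and 8.23 against 8.20, 8.44, 9.02, 9.20 and 9.45. The arms overlapped in XY- and XY-Sry, and the mean was higher under estradiol in all 4 genotypes.

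**Figure D1:**
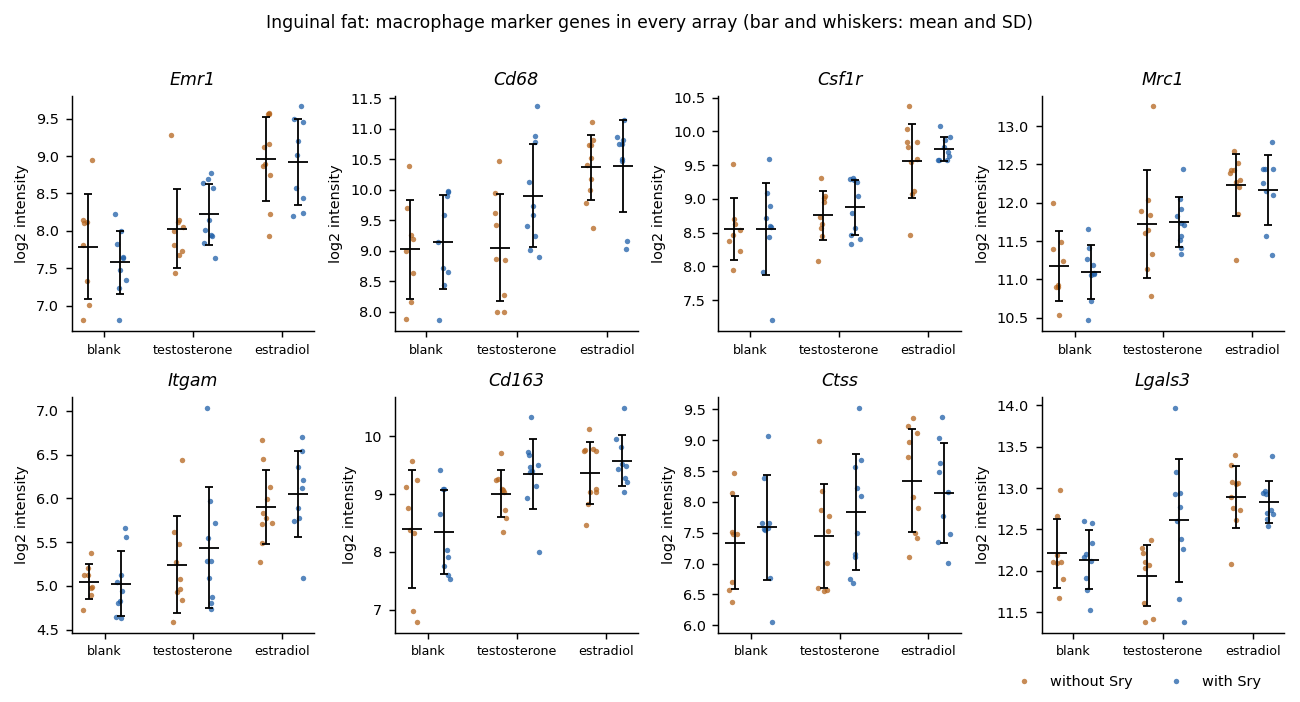
Normalised log2 intensity of the 8 macrophage marker genes detected in inguinal fat, 1 point per array, by capsule (blank, testosterone, estradiol) and by presence of Sry; bars are means and whiskers SD. The estradiol mean is the highest of the 3 for each gene and the arrays overlap the blank arrays, for example 7.93 to 9.66 against 6.81 to 8.94 for Emr1. For Itgam, detected on 15 of 55 arrays, this order is not read.

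Csf1r, the receptor for the growth factors that maintain macrophages, ran from 7.20 to 9.59 (median 8.58) under blank and from 8.46 to 10.37 (median 9.69) under estradiol. Of the estradiol arrays 18 of 19 lay above the blank median, and the difference was 1.13 ± 0.16 (2.19-fold, limma adjusted p = 4.41e-07). Its dimmer probe differed by 1.53 ± 0.27. Cd68, the lysosomal glycoprotein, ran from 7.86 to 10.38 (median 9.13) under blank and from 9.02 to 11.14 (median 10.53) under estradiol. It differed by 1.33 ± 0.26 (2.51-fold, limma adjusted p = 0.000147), with 18 of 19 estradiol arrays above the blank median. For both genes the arms overlapped.

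The scavenger receptors rose as well. Mrc1 ran from 10.47 to 12.00 (median 11.09) under blank and from 11.25 to 12.79 (median 12.29) under estradiol. All 19 estradiol arrays were above the blank median and the difference was 1.08 ± 0.16 (2.11-fold, limma adjusted p = 7.77e-07). Cd163 ran from 6.79 to 9.57 (median 8.38) and from 8.47 to 10.49 (median 9.49), a difference of 1.11 ± 0.21 (2.16-fold, limma adjusted p = 5.88e-05) with 19 of 19 above. Its other probe was detected on 0 of 17 blank, 2 of 19 testosterone and 5 of 19 estradiol arrays, with measured means of 5.07, 5.32 and 5.42, and no difference is given for it.

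Ctss and Lgals3 had the smallest differences among the brightest probes. Lgals3 ran from 11.52 to 12.97 (median 12.11) under blank and from 12.08 to 13.40 (median 12.90) under estradiol, a difference of 0.70 ± 0.16 (1.63-fold, limma adjusted p = 0.000989). Ctss ran from 6.05 to 9.07 (median 7.55) and from 7.003 to 9.38 (median 8.16), with 13 of 19 estradiol arrays above the blank median. Its difference of 0.78 ± 0.29 was near the threshold (limma adjusted p = 0.0461). Itgam was detected on 0 of 17 blank, 3 of 19 testosterone and 12 of 19 estradiol arrays. Its measured means of 5.04 ± 0.29 (SD, n = 17) and 5.97 ± 0.45 (SD, n = 19) are therefore a level against a bound, and neither a fold nor a test is given.

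With XX E replicate 1 taken as testosterone 10 of the 12 probes were called. Only 2 of the 8 slides held both blank and estradiol arrays. Within them 24 of 24 differences of the 12 probes were above 0, from 0.13 to 1.47. With slide as a block, 10 of the 12 probes passed. Each of these counts over 12 includes the 3 probes detected on less than 50% of the arrays. All probes also share the same arrays, so the counts are not read as support. In mice with Sry 8 of the 9 probes (6 genes) were higher under estradiol, where 5.99% of all tested probes and 6.60% of well-detected ones were higher. Without Sry 8 of the 9 (6 genes) were higher, where 5.1% and 5.11% were. Ctss missed the threshold in both.

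Testosterone was followed by higher levels of Mrc1 and Cd163 in fat, and no other member passed. The 2 called probes compare with 4.75% of all tested probes called in either direction and 2.16% called higher. Mrc1 under testosterone ran from 10.78 to 13.26 (median 11.71), with 18 of 19 arrays above the blank median, and its difference from blank was 0.61 ± 0.16 (1.52-fold, limma adjusted p = 0.0139). Cd163 ran from 7.998 to 10.33 (median 9.24), with 17 of 19 above, and differed by 0.81 ± 0.21 (1.75-fold, limma adjusted p = 0.013). Both arms overlapped the blank arm. All 9 well-detected probes had differences above 0, with a median of 0.42. Those of the other genes did not pass, among them Emr1 (8.13 ± 0.47, SD, n = 19) and Cd68 (9.50 ± 0.95, SD, n = 19). Within the 2 slides that held both arms 19 of 24 differences of the 12 probes were above 0, a count that includes the dim probes and is not read further. With slide as a block the Mrc1 difference was 0.55 and no longer passed (limma adjusted p = 0.19). In mice with Sry only Cd163 passed (1.05, limma adjusted p = 0.0242; 1.84% of all probes higher), and without Sry none of the 12 did in limma, 1 having an unadjusted p under 0.05 (0.417% of all probes called).

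Testosterone and estradiol were also set against each other directly, without the blank arrays that the 2 contrasts above share. Under testosterone 7 of the 9 probes (5 genes) were lower than under estradiol, where 9.57% of all tested probes and 10.1% of well-detected ones were lower, and the median difference was -0.83. Csf1r differed by -0.85 (limma adjusted p = 5.09e-05), Emr1 by -0.83, Cd68 by -0.91, Lgals3 by -0.60 and Mrc1 by -0.47. Cd163 at -0.30 (limma adjusted p = 0.297) and Ctss at -0.59 (limma adjusted p = 0.13) did not pass.

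Neither Sry nor the sex chromosomes gave a called member in fat in the fit without slides or weights. For Sry 0 of 12 probes passed in limma, with differences from -0.03 to 0.37 and 1 unadjusted p under 0.05, where 7.34% of all tested probes were called. The Cd163 probe detected on 7 of 55 arrays was called with slide as a block (0.29, limma adjusted p = 0.0479). Within blank, testosterone and estradiol mice the count was 0 each time (1.8%, 3.42% and 4.4% of all probes called), with 0, 3 and 0 unadjusted p under 0.05. For XX minus XY 0 passed in limma, with differences from -0.34 to 0.44 and 1 unadjusted p under 0.05, where 0.137% of all probes were called. The value of 0.44 was that of Cd163 (limma adjusted p = 0.348), and with array weights it was 0.50 and called (limma adjusted p = 0.0381). Within the 7 slides that held more than 1 array with Sry and more than 1 without, 52 of 84 differences were above 0, dim probes included.

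Ordered by mean, the 4 estradiol groups of fat held the first 4 of 12 places for Emr1, Cd68, Csf1r, Mrc1 and Lgals3, and 3 of the first 4 for Cd163 and Ctss. Itgam was detected on 15 of 55 arrays and passed the filter through the estradiol arm, so its order is not read. For Emr1 the order began with XX E (9.19 ± 0.38, SD, n = 5), XXSry E (8.99 ± 0.70, n = 4), XY-Sry E (8.86 ± 0.53, n = 5) and XY- E (8.74 ± 0.66, n = 5). It ended with XY-Sry B (7.57 ± 0.45, SD, n = 4). Mrc1 ran from 12.45 ± 0.17 (SD, n = 5) in XX E to 10.94 ± 0.43 (SD, n = 4) in XY-Sry B, and Lgals3 from 12.94 ± 0.32 (SD, n = 4) in XXSry E to 11.91 ± 0.33 (SD, n = 4) in XX T. For each of the 8 genes, 0 of the 11 gaps between neighbouring groups exceeded the larger SD of the pair.

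In liver the members were lower in mice with Sry than in mice without it. The comparison asks whether the type of gonad a mouse had before surgery, or the transgene it still carried, goes with a difference after it. The 2 cannot be told apart here. Of the 8 well-detected probes 6 (5 genes: Emr1, Cd68, Csf1r, Ctss and Lgals3) were lower at limma adjusted p under 0.05. Over all 11317 tested probes 3.4% were called and 2.85% were lower, and over the 9060 so detected 2.76% were lower. The median difference of the 8 was -0.60, against 0.02 for those 9060. The other 2 probes were also called, but the Emr1 probe was detected on 1 of 30 arrays with Sry and 9 of 30 without, and the dimmer Csf1r probe on 6 and 19.

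Lgals3 ran from 6.73 to 8.50 (median 7.66) in the 30 arrays with Sry and from 6.89 to 9.96 (median 8.40) in the 30 without. Only 1 of 30 arrays with Sry lay above the median of the others, and the difference was -0.72 ± 0.10 (limma adjusted p = 1.59e-06). Emr1 ran from 5.00 to 6.69 (median 5.90) with Sry and from 5.23 to 7.76 (median 6.52) without, was detected on 21 and 29 of 30 arrays, and differed by -0.72 ± 0.11 (limma adjusted p = 7.4e-06). Both were lower with Sry in 6 of 6 pairs of groups that share treatment and sex chromosomes, and the arms overlapped. For Lgals3 the means of XX T and XXSry T were only 0.0025 apart.

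Csf1r ran from 6.10 to 7.67 (median 6.82) with Sry and from 5.74 to 8.73 (median 7.38) without, and differed by -0.60 ± 0.10 (limma adjusted p = 9.36e-06), with the same sign in 6 of 6 pairs of groups. Cd68 ran from 5.47 to 7.94 (median 6.23) and from 4.91 to 8.50 (median 6.90), a difference of -0.60 ± 0.12 (limma adjusted p = 0.000719) with the sign kept in 4 of 6 pairs. Ctss ran from 4.48 to 6.78 (median 5.89) and from 5.19 to 8.38 (median 6.53), a difference of -0.66 ± 0.13 (limma adjusted p = 0.000257). Its mean was higher in XXSry T (5.96) than in XX T (5.77). For each of them most arrays with Sry lay below the median of those without, with 4 of 30 above for Csf1r and Ctss and 7 of 30 for Cd68. The scavenger receptors did not pass: Mrc1 differed by -0.21 (limma adjusted p = 0.169) and Cd163 by -0.44 (limma adjusted p = 0.0868). With slide as a random block Cd163 passed (-0.44, limma adjusted p = 0.0401), as it did without XXSry T replicate 4 (limma adjusted p = 0.0288) or XX E replicate 4 (limma adjusted p = 0.0276). Mrc1 passed with array weights (-0.22, limma adjusted p = 0.046) and without XY- E replicate 2 (-0.24, limma adjusted p = 0.0414).

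**Figure D2:**
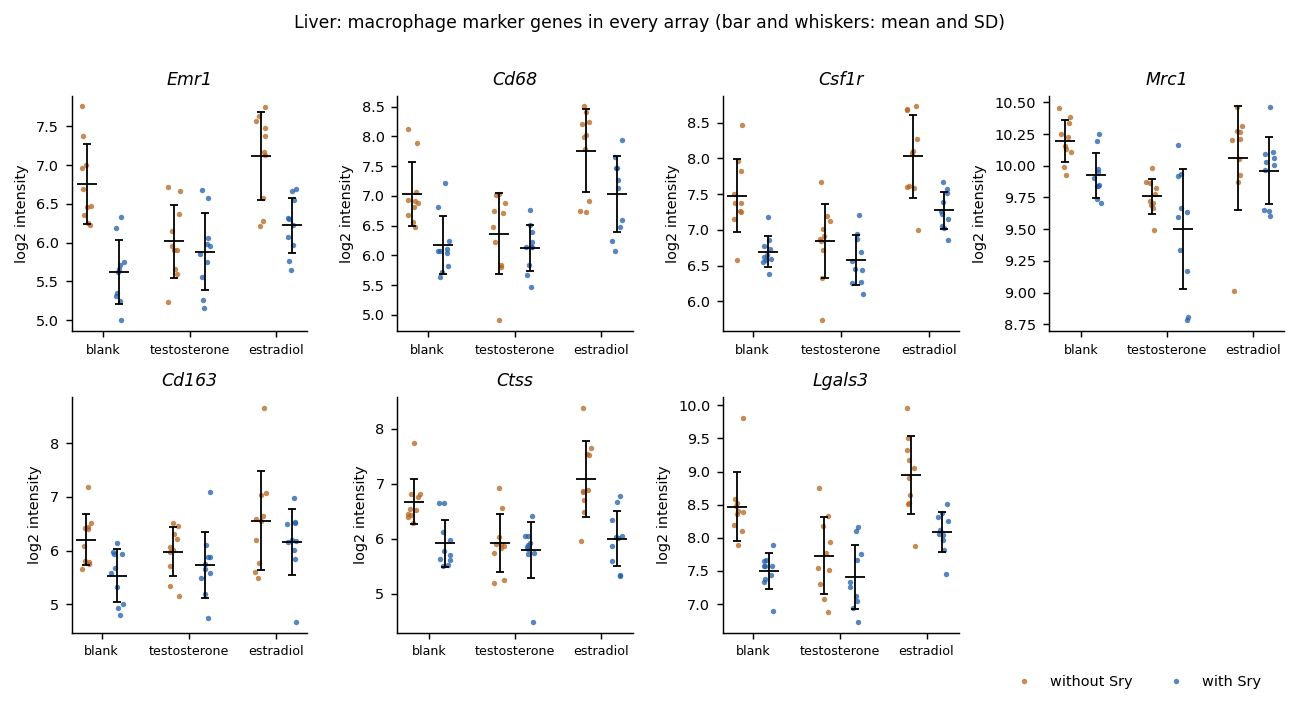
Normalised log2 intensity of the 7 macrophage marker genes detected in liver, 1 point per array, by capsule and by presence of Sry; bars are means and whiskers SD. In blank and estradiol mice the arrays without Sry sit higher, as for Emr1 (6.75 against 5.62 in blank mice), and in testosterone mice the arms lie close (6.02 against 5.88).

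By capsule, the difference with Sry was called in blank and in estradiol mice and not in testosterone mice. In blank mice 4 of the 8 probes (4 genes) were lower, where 1.47% of all tested probes and 1.56% of well-detected ones were lower. Emr1 read 5.00, 5.35, 5.72, 5.75 and 6.19 in XXSry B and 5.25, 5.31, 5.62, 5.66 and 6.32 in XY-Sry B. It read 6.23, 6.45, 6.69, 6.99 and 7.38 in XX B and 6.25, 6.35, 6.47, 6.96 and 7.76 in XY- B. Only the highest array with Sry (6.32) reached the range without it, and the difference was -1.14 (limma adjusted p = 0.000115). Lgals3 in blank mice ran from 6.90 to 7.90 with Sry and from 7.89 to 9.82 without, arms that touch only at 7.90 and 7.89, and differed by -0.97 (limma adjusted p = 0.000441). In estradiol mice 4 of the 8 (4 genes) were lower, where 2.01% and 1.78% were, with Ctss at -1.09, Emr1 at -0.90, Lgals3 at -0.86 and Csf1r at -0.76. In testosterone mice 0 of 10 passed in limma and 0 had an unadjusted p under 0.05, the differences lying between -0.32 and -0.06 (0.212% of all probes called).

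Whether the testosterone response itself differed by gonad was tested as an interaction. None of the 10 probes passed in limma, where 0.124% of all did. All 10 values were above 0 and 7 had an unadjusted p under 0.05, with Emr1 at 1.01 ± 0.28 (limma adjusted p = 0.22). With slide as a block the Emr1 value was 1.01 and passed (limma adjusted p = 0.0489), and without the 2 arrays that went against their labels it was 0.91 and did not (limma adjusted p = 0.294).

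Within the 8 slides 77 of 80 differences of the 10 probes were below 0, from -1.17 to 0.14. This count includes 2 probes detected on less than 50% of the arrays, and all probes share the same arrays. It is therefore not read as support. Markers of other leukocytes were read in the same contrast, where 2.85% of all tested probes were lower. Of 4 tested neutrophil genes 3 were lower with Sry, of 3 T cell genes 2, and the 1 tested B cell gene, Cd79b, was lower. S100a8 was detected on 55 of 60 arrays and Cd79b on at most 26. The other called genes, S100a9, Ngp, Cd3g and Cd3d, were detected on 11, 7, 11 and 5, so these counts are not read further. The summed deposited signal of the 4 neutrophil genes ran from 473 to 1164 (median 599) with Sry and from 523 to 10304 (median 634) without. That of the 3 T cell genes ran from 354 to 461 (median 401) and from 385 to 599 (median 446), and that of Cd79b from 112 to 223 (median 147) and from 132 to 283 (median 162). The B cell genes Ms4a1 and Pax5 were detected on 0 of 60 arrays and Cd3e on 4. With the mean B and T cell marker level as a covariate, 0 of 10 probes passed in limma and 8 had an unadjusted p under 0.05. The share of all tested probes called was 0.592%. That level was taken from Cd79b, Cd3d, Cd3g and Il7r, the last detected on at most 5 arrays, so it rests largely on dim probes. The 10 differences then lay between -0.60 and -0.15, among them Emr1 at -0.45 (limma adjusted p = 0.296) and Lgals3 at -0.53 (limma adjusted p = 0.127). The part of these cells in the result was not tested further.

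Testosterone was followed in liver by lower levels of 4 members. Of the 8 well-detected probes 4 were lower than under blank, and their median difference was -0.36. Over all tested probes 19.1% were called and 10.9% were lower, and over those so detected 12.4% were lower. Mrc1 ran from 9.71 to 10.45 (median 10.05) under blank and from 8.78 to 10.17 (median 9.70) under testosterone. Only 1 of 20 testosterone arrays lay above the blank median, and the difference was -0.43 ± 0.10 (limma adjusted p = 0.000674). Less group means, liver Mrc1 had r = 0.08 with the mean standardised level of the other members. Which cells carry it here was not tested. Ctss (-0.44 ± 0.15, limma adjusted p = 0.0375), Lgals3 (-0.41 ± 0.13, limma adjusted p = 0.0163) and Csf1r (-0.37 ± 0.12, limma adjusted p = 0.0172) were lower too, with overlapping arms. The Ctss call was lost in 6 of 10 other settings, where its value lay between -0.46 and -0.18 (limma adjusted p up to 0.176). Cd68 at -0.36 (limma adjusted p = 0.0924), Emr1 at -0.23 and Cd163 at -0.01 did not pass. Emr1 was at -0.39 and passed with slide as a block (limma adjusted p = 0.0297).

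In mice without Sry 6 of the 8 probes (6 genes) were lower under testosterone, where 4.64% of all and 5.11% of well-detected ones were, with Ctss at -0.75, Emr1 and Lgals3 at -0.74, Cd68 at -0.67, Csf1r at -0.64 and Mrc1 at -0.44. In mice with Sry only Mrc1 passed (-0.42, limma adjusted p = 0.0349; 5.22% of all lower). The test of that difference is the interaction above. Within the 3 slides that held both arms 27 of 30 differences were below 0, a count that includes the dim probes and is not read further. The B cell gene Cd79b was lower by -0.66 and 1 of 3 T cell genes, Cd3g, was lower. They were detected on at most 26 and on 11 of 60 liver arrays. Of 4 neutrophil genes 0 passed in limma, none with an unadjusted p under 0.05. With the B and T cell covariate 2 of the 10 probes passed, and 13.6% of all.

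Estradiol was followed in liver by higher Emr1, Cd68, Csf1r and Lgals3. Of the 8 well-detected probes 5 (4 genes) were higher than under blank. Over all tested probes 6.82% were called and 3.55% were higher, and over those so detected 3.62% were higher. The median difference of the 8 was 0.49. The other 2 probes were also called, the Emr1 probe being detected on 3 blank and 7 estradiol arrays and the Csf1r probe on 8 and 13 of 20. Cd68 ran from 5.64 to 8.12 (median 6.62) under blank and from 6.07 to 8.50 (median 7.48) under estradiol, a difference of 0.79 ± 0.15 (limma adjusted p = 0.000342) with 16 of 20 estradiol arrays above the blank median. Csf1r ran from 6.38 to 8.46 (median 7.01) and from 6.86 to 8.73 (median 7.57), a difference of 0.57 ± 0.12 (limma adjusted p = 0.000798) with 18 of 20 above. Lgals3 differed by 0.53 ± 0.13 and Emr1 by 0.49 ± 0.14 (limma adjusted p = 0.00494 and 0.0219). Mrc1 at -0.05 (limma adjusted p = 0.83), Ctss at 0.25 and Cd163 at 0.49 (limma adjusted p = 0.0823) did not pass. Ctss was at 0.51 and passed with slide as a block (limma adjusted p = 0.0151), and with array weights Cd163 was at 0.46 and passed (limma adjusted p = 0.0431). Cd163 also passed without XY-Sry E replicate 1 (0.56, limma adjusted p = 0.0339) or XX E replicate 4 (0.57, limma adjusted p = 0.0293). All arms overlapped.

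Within the 2 slides that held both arms 19 of 20 differences of the 10 probes were above 0, a count that includes the dim probes and is not read further. With median centring in place of quantile normalisation 3 of the 10 probes were called, and the median over all tested probes then moved to -0.18, with 9 of 10 members above it. Of 4 neutrophil genes 3 were higher under estradiol, where 3.55% of all tested probes were, with S100a8 at 2.29. S100a8 was detected on 55 of 60 liver arrays but S100a9 on 11 and Ngp on 7, so this count is not read further. The summed deposited signal of the 4 genes ran from 495 to 1622 (median 609) under blank and from 515 to 10304 (median 810) under estradiol. The part of neutrophils was not tested. In mice with Sry 2 of the 8 probes were higher in limma, where 1.15% of all tested probes were. In mice without Sry 0 of the 8 were higher, 4 having an unadjusted p under 0.05, where 1.38% of all were. That 0 changed when the arrays at odds with their labels were left out, of which only XY- E replicate 5 belongs to this contrast. Without both of them Cd68 (0.79, limma adjusted p = 0.0321) and Csf1r (0.64, limma adjusted p = 0.0127) passed in mice without Sry. The same 2 genes then passed with Sry (0.86 and 0.58, limma adjusted p = 0.0175 and 0.0339). Against estradiol directly, testosterone arrays were lower in 8 of the 8 probes (7 genes), where 10.6% of all tested probes and 11.4% of well-detected ones were lower, with a median difference of -0.74. Cd68 differed by -1.15 (limma adjusted p = 3.23e-08), Lgals3 by -0.95 and Csf1r by -0.94.

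**Figure D3:**
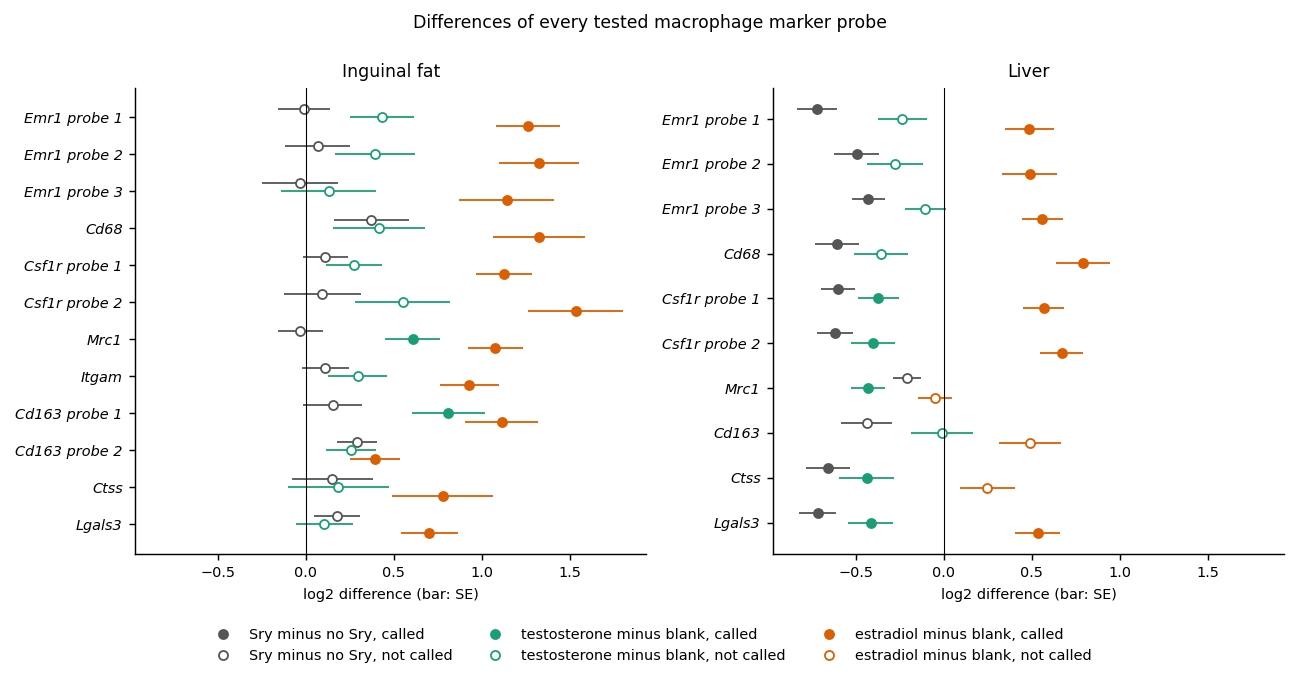
Log2 difference with its SE for each tested macrophage probe in fat and liver, for Sry minus no Sry, testosterone minus blank and estradiol minus blank; filled points passed limma adjusted p under 0.05. Of the probes detected on at least 50% of the arrays, estradiol values lie above 0 for 9 of 9 in fat and 7 of 8 in liver, and the Sry values lie below 0 for 8 of 8 in liver.

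For the sex chromosomes 0 of 10 liver probes passed in limma, where 0.186% of all did, with differences from -0.28 to 0.42 and 3 unadjusted p under 0.05. The 3 were Cd163 (0.42, limma adjusted p = 0.731), Csf1r (-0.21) and Lgals3 (-0.28). For estradiol by sex chromosome all 10 interaction values were above 0 and 0 passed in limma, where 0% of all did, with 2 unadjusted p under 0.05. Of the other interactions of both tissues 0 gave a called member in limma, and 1 fat probe had an unadjusted p under 0.05, for testosterone by gonad. The share of all probes called was 0.813% for estradiol by gonad and 0.0137% for testosterone by gonad in fat, 0.0795% for estradiol by gonad in liver, and 0% for the rest.

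In liver the XX E group had the highest mean of the 12 groups for each of the 7 genes. Emr1 in it read 7.17, 7.37, 7.57, 7.63 and 7.75, and the next group, XY- B, read 6.25 to 7.76, a gap of 0.74 between means that exceeded the larger SD. Cd68 in XX E read 7.99, 8.20, 8.25, 8.42 and 8.50, a gap of 0.95 to the next mean, and Csf1r read 8.07, 8.10, 8.27, 8.67 and 8.69, a gap of 0.66. Both gaps exceeded the larger SD. Without the 2 arrays at odds with their labels XX E stayed first for all 7 genes and XY- E was next for these 3. The gap was then 0.63 for Emr1 and 0.91 for Cd68, beyond the larger SD (0.54 and 0.64), and 0.48 for Csf1r, within it (0.56). Lgals3 in XX E read 8.65, 9.05, 9.18, 9.33 and 9.96, and its gap of 0.51 did not exceed it. The lowest means were 5.60 ± 0.45 (SD, n = 5) in XXSry B for Emr1, 5.85 ± 0.60 (SD, n = 5) in XX T for Cd68, 6.44 ± 0.33 (SD, n = 5) in XXSry T for Csf1r and 7.31 ± 0.59 (SD, n = 5) in XXSry T for Lgals3. Groups without Sry took 5 of the 6 upper places for Emr1, Cd68, Csf1r, Cd163 and Lgals3, 4 for Ctss and 3 for Mrc1.

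The rest of the macrophage program was read from further gene lists. In fat under estradiol 8 of 11 genes of Kupffer cells and resident macrophages were higher, with a list median of 1.33. Over all tested fat probes 20.5% were called in this contrast and 10.4% were higher, which are the shares beside the counts that follow. Some of these lists hold genes detected on few arrays, such as Vsig4 (26 of 55), Chi3l3 (at most 12) and Mmp12 (8). Their counts are therefore not read further. The higher resident macrophage genes include the complement components C1qa (1.73) and C1qb (1.46) and the folate receptor Folr2 (1.64), each detected on all 55 arrays. Of 6 genes of alternative activation 4 were higher, led by the lectins Mgl2 (1.54) and Clec10a (1.35), and of 6 genes of inflammatory activation 2 were, Tlr2 (0.79) and Cd14 (0.50). Of 10 genes of lysosomes and lipid-laden macrophages 5 were higher and 1 lower, and Trem2, a lipid-sensing receptor, differed by 1.80. In the CSF1 axis the ligand Csf1 was higher (0.60, limma adjusted p = 0.00964) and the ligand Il34 lower (-0.46, limma adjusted p = 0.0178). Of 4 monocyte genes 3 were higher, with Fcgr3 at 1.43.

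Genes of other cells in fat were read in the same contrast. Of 5 B cell, 6 T cell, 5 neutrophil, 3 dendritic cell and 5 skeletal muscle genes 0 passed in limma and 0 had an unadjusted p under 0.05, with list medians of -0.18, -0.19, 0.19, 0.04 and -1.16. Of 5 adipocyte genes 3 were lower (Lipe -0.46, Plin1 -0.40, Lep -0.47) and of 4 mammary epithelium genes 1 was higher (Krt8, 1.36). Over all tested probes 20.5% were called in either direction. The summed deposited signal of the muscle genes ran from 4905 to 129220 (median 40846) under blank and from 801 to 115139 (median 11826) under estradiol. That of the B cell genes ran from 661 to 29537 (median 3424) and from 817 to 17743 (median 5208). With the levels of these other tissues as covariates 11 of the 12 member probes, dim ones included, passed, and with the B and T cell covariate all 12 did, while the hepatocyte genes gave 0 of 5 called and 0 unadjusted p under 0.05. Under testosterone in fat 3 of 11 resident macrophage genes were higher, among them Fcgr1 (1.03), and Trem2 differed by 1.19. There 2.16% of all tested probes were higher. For Sry in fat 4 of 4 mammary epithelium genes were lower (list median -3.75), where 7.34% of all tested probes were called. In that contrast 0 of 11 resident macrophage genes passed in limma or had an unadjusted p under 0.05.

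In liver 7 of 12 Kupffer cell and resident macrophage genes passed in each of the 3 contrasts. They were lower with Sry (C1qb -0.77, Vsig4 -0.65), lower under testosterone (Clec4f -0.64, Mertk -0.46) and higher under estradiol (C1qb 0.80, Folr2 0.82, Vsig4 0.75). The shares of all tested probes differ between these contrasts: 2.85% were lower with Sry, 10.9% lower under testosterone and 3.55% higher under estradiol. Clec4f and Vsig4 are surface receptors of Kupffer cells. C1qb, Vsig4, Clec4f and Mertk were detected on all 60 arrays and Folr2 on 57. Of the 12 genes, Timd4, Marco, Fcgr1 and Lyve1 were detected on 18, 15, 13 and 11, so the counts of this list are not read further. Of 5 pan-leukocyte genes 3 were lower with Sry (Coro1a -0.87), 3 lower under testosterone and 4 higher under estradiol. Cd53 and Tyrobp of that list were detected on 15 and 25 arrays, so its counts are not read further either. Of 3 genes of alternative activation 1 passed, under testosterone (Stab1 -0.24), and the other contrasts had 0 unadjusted p under 0.05. The 3 were Arg1 and Stab1, detected on 60 of 60 arrays, and Mgl2, detected on 6. Retnla and Clec10a were detected on 0, so this list is not read as a state of liver macrophages. Lyz2, the lysozyme of macrophages and neutrophils, differed by -0.78, -0.58 and 0.81. These lists and the members are read from the same arrays, so their counts are not independent of each other.

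**Figure D4:**
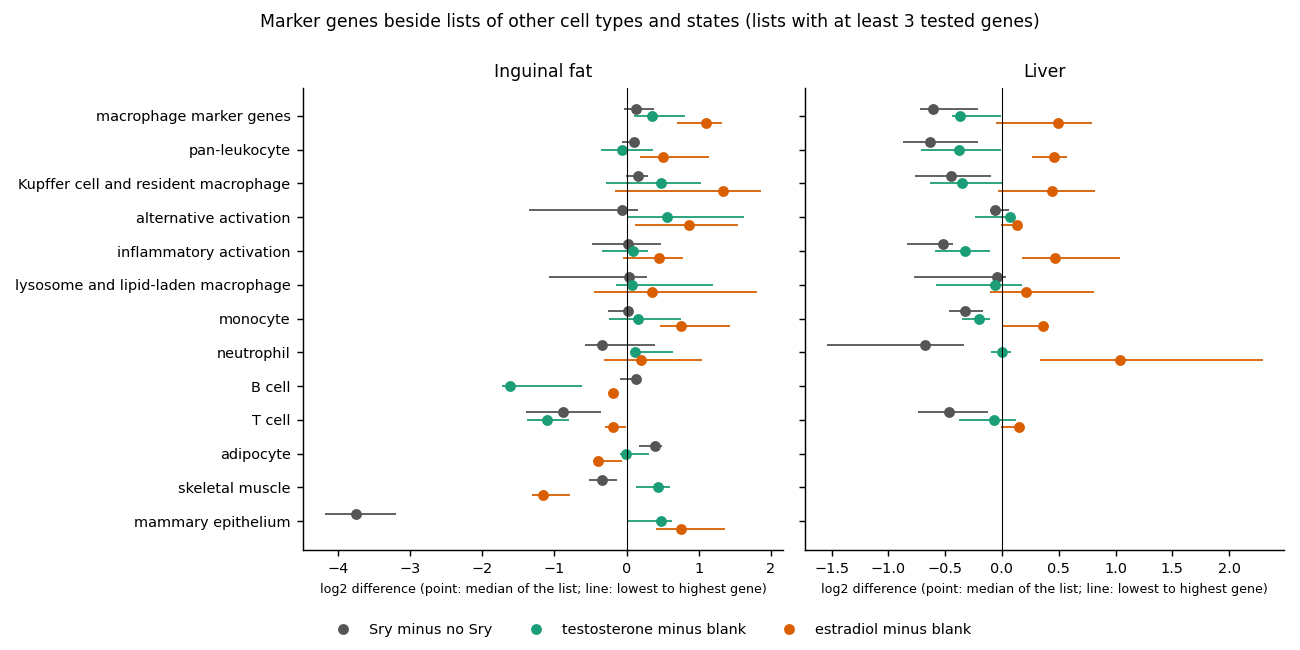
Median log2 difference (point) and range (line) of each gene list with at least 3 tested genes, for Sry minus no Sry, testosterone minus blank and estradiol minus blank in fat and liver. In fat under estradiol the macrophage members (median 1.09 over 8 genes, Itgam included) and resident macrophage genes (1.33) lie to the right, and muscle genes (-1.16) to the left.

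Across the 55 fat arrays, all 28 pairs of the 8 genes had a Pearson r above 0, from 0.03 (Cd163 with Ctss) to 0.81 (Cd68 with Itgam), with a median of 0.62. Itgam was below detection on 40 of the 55 arrays, so its pairs are not read. Among pairs without it the highest r was 0.80 (Emr1 with Csf1r). Its 7 pairs remain in the counts and medians over 28 pairs, which are therefore descriptive only. Adjusted over the 28 pairs, 25 had a permutation p under 0.05 (100000 permutations), and the median Spearman rho was 0.60. These values contain the differences between the 12 groups, so the group means were then subtracted. The median r became 0.46, 18 of 28 pairs passed, and the median Spearman rho was 0.38 with 15 passing. Without the 2 arrays farthest from the median of the first gene the median r was 0.40, and less group and slide means it was 0.49.

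Within groups of fat the closest pairs without Itgam were Cd68 with Mrc1 (r = 0.66), Emr1 with Cd163 (0.66), Emr1 with Mrc1 (0.63) and Emr1 with Csf1r (0.60). Cd68 with Itgam gave 0.72, which is not read because Itgam was mostly below detection. The correlations were uneven. Cd163 went with Emr1 and Csf1r (0.42) but had r = -0.18 with Cd68, -0.19 with Itgam and -0.20 with Ctss, none of which passed. Ctss went with Lgals3 (0.56), Cd68 (0.54) and Csf1r (0.53) and less with Mrc1 (0.12) and Emr1 (0.16). The median r with the other 7 genes was 0.51 for Cd68, 0.50 for Emr1 and 0.16 for Cd163.

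Across the 60 liver arrays the 21 pairs of 7 genes ran from r = 0.14 (Mrc1 with Cd163) to 0.86 (Csf1r with Lgals3), with a median of 0.56, and 20 passed. Less group means the median was 0.28 and 7 of 21 passed. The pairs with the highest r were then Emr1 with Lgals3 (0.59), Emr1 with Csf1r (0.59), Cd163 with Lgals3 (0.53), Csf1r with Lgals3 (0.51) and Cd68 with Csf1r (0.46). Mrc1 had a median r of 0.07 with the other 6 genes, against 0.42 for Csf1r and Lgals3 and 0.35 for Emr1. The median Spearman rho was 0.23, with 7 passing. Without the 2 arrays farthest from the median of the first gene the median r was 0.26, and less group and slide means it was 0.27. All values of an array share its normalisation, and with median centring 21 of 21 liver and 21 of 28 fat pairs passed less group means.

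**Figure D5:**
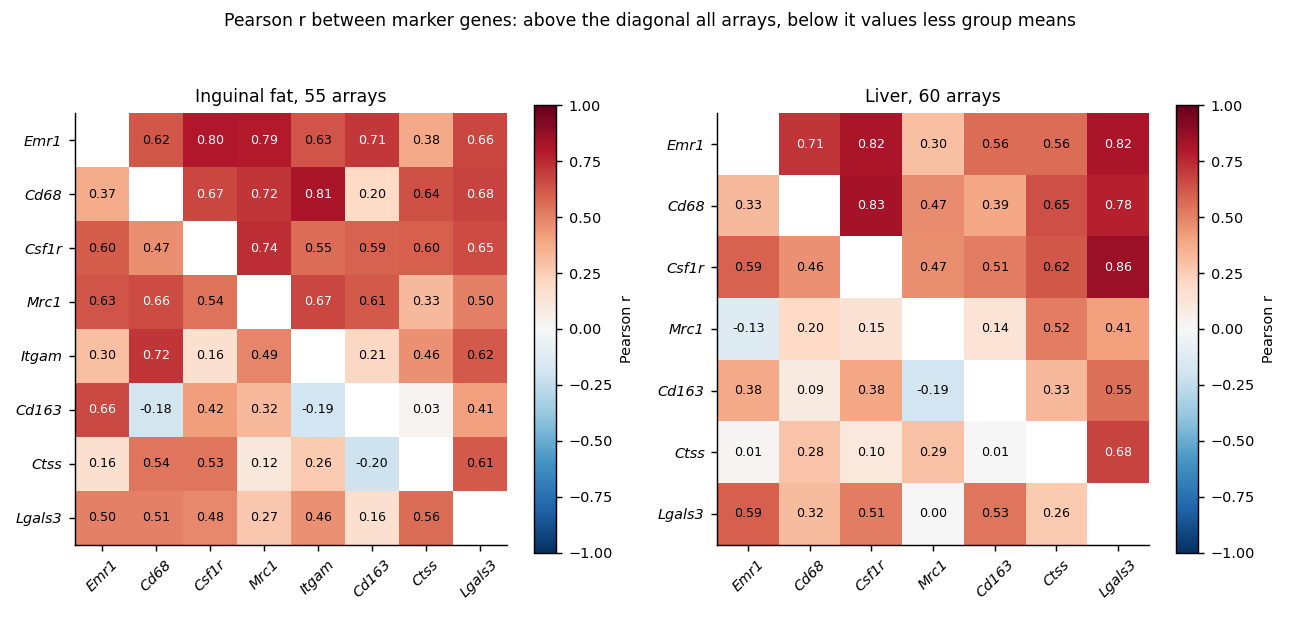
Pearson r between the macrophage marker genes over 55 fat and 60 liver arrays, above the diagonal over all arrays and below it after group means were subtracted. The lower cells are paler than the upper ones, with medians of 0.46 against 0.62 in fat and 0.28 against 0.56 in liver, and Cd163 in fat and Mrc1 in liver stand apart. The fat medians include Itgam, detected on 15 of 55 arrays.

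The probes most like the members' mean standardised level, less group means, were C1qb (r = 0.86), Marcks (0.86), Dab2 (0.85), Alox5ap (0.84) and Rgl1 (0.83) over the 55 fat arrays. Over the 60 liver arrays they were Fpr-rs2 (0.77), Vsig4 (0.75), C1qb (0.74), Laptm5 (0.74) and C1qg (0.72). Emr1 alone, less group means, had r = 0.69 with the mean level of the Kupffer cell and resident macrophage genes in liver and 0.45 in fat (permutation p adjusted over 9 lists 9e-05 and 0.0148). In liver it also passed with the pan-leukocyte genes (0.64, permutation p adjusted over 9 lists 9e-05) and the hepatocyte genes (0.32, adjusted permutation p = 0.0436). It passed too with Krt8 and Krt18, the 2 genes of the mammary epithelium list tested in liver (0.40, adjusted permutation p = 0.0274). Both were detected on all 60 liver arrays and Csn3 and Krt14 of that list on 0, so this is not read as a mammary signal. Fat gave 0.05 for the pan-leukocyte, 0.07 for the hepatocyte and 0.14 for the mammary list. The other 5 liver lists did not pass, from -0.21 with the 1 adipocyte gene tested to 0.29 with the 1 B cell gene. The other 8 fat lists did not pass, from -0.32 with the B cell genes to 0.36 with the adipocyte genes.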

How the data were processed

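RNA of 55 inguinal fat and 60 liver samples was read on 1-colour arrays. Per the file headers, each array has 2 deposited values for a probe: the intensity (mean bead signal, linear) and a detection p-value. Per the submitters' processing notes lumi was used (version not given), and scanner settings and array version are not given in the sources used here. The 115 columns of bead standard error were not used.

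Each tissue was processed apart in limma 3.58.1 (R 4.3.3): normexp background correction from the detection p-values, 16 added, quantile normalisation, log2. This left 14636 fat and 11317 liver probes that passed the detection filter. A mean for each group was fitted with lmFit and eBayes over all arrays of a tissue, contrasts weighted groups equally, and p-values were Benjamini-Hochberg adjusted within a contrast and called under 0.05. The fit was tested on simulated data first. Correlations used 100000 permutations (numpy 2.4.6), within groups where group means had been subtracted. Fat and liver levels were not compared, being normalised apart.

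The members, lists and tests were chosen with earlier results of these data known. All member probes are described. From each other list up to 3 called genes with the smallest adjusted p are named, and for likeness the 5 non-member probes with the highest r. An older symbol, Lyz, was dropped from the alias of Lyz2 after values had been seen, because the array annotates it as another gene. The individual values in the closing observations were chosen after being seen. Precision is limited by how many arrays a group has. Alternatives tried were other background, offset, normalisation and filter settings, slide as a block, array weights, marker covariates, the arrays at odds with labels, and leaving out each array. Counts over members detected on at least 50% of the arrays keep the p-values adjusted over all tested probes.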

Additional observations from a re-analysis of the deposited data

Results flagged for a closer look

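Within groups of 4 or 5 arrays, 15 of 172 gene and group combinations had an array far from the others by Dixon's criterion, where chance gives about 1 in 20. No cause was tested for any of them.

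In fat, Cd68 read 9.02 in XXSry E replicate 2, below 10.50 to 10.76 in the other arrays of its group. Cd163 read 8.82 in XX E replicate 3, where the others lay between 9.74 and 9.78, and 8.73 in XX T replicate 1, where they lay between 9.04 and 9.09. That same XX T replicate 1 had Ctss at 8.99, above 6.56 to 6.60 in the others. Lgals3 read 11.41 in XX T replicate 4, below 12.04 to 12.11.

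In liver, XY- B replicate 1 stood high for 3 genes. Its Lgals3 read 9.82 (others 8.36 to 8.58), its Ctss 7.74 (6.44 to 6.81) and its Cd163 6.51 (5.65 to 5.81). XXSry B replicate 1 was high for Cd68 at 7.22 (5.64 to 6.07) and for Mrc1 at 10.1969 (9.84 to 9.91). XX T replicate 4 was high for Emr1 at 6.71 (5.60 to 5.91) and low for Ctss at 5.19 (5.84 to 6.03). Cd68 read 6.82 in XY-Sry B replicate 5 (6.04 to 6.25) and 6.07 in XY-Sry E replicate 4 (7.47 to 7.94). Ctss read 4.48 in XY-Sry T replicate 4, below 5.82 to 6.05.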

How the results depend on the processing

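No paired analysis was possible because the replicate numbers only name arrays within a group. In fat the count of 12 probes called for estradiol stayed between 10 and 12 under the other settings tried. The exception was the limit to members detected on at least 50% of the arrays, which gave 9 of 9. The testosterone count of 2 became 1 with median centring and 1 with slide as a block, Mrc1 being the probe lost (adjusted p 0.125 and 0.19), and the 0 for Sry became 1 with slide as a block (Cd163). The 0 for sex chromosomes became 1 with array weights (Cd163, 0.50). The 30 calls within strata became 20 with slide as a block. In liver median centring gave 3 in place of 7 for estradiol and 23 in place of 34 within strata. It also moved the share of higher among called probes from 52.1% to 8.55% for estradiol and from 42.8% to 16.5% for testosterone there, and in fat from 35.8% to 23.4% for Sry and from 65% to 53.3% for sex chromosomes. The B and T cell covariate, taken largely from dim probes in liver, gave 0 in place of 8 for Sry, 2 in place of 5 for testosterone and 16 in place of 34 within strata. Any interaction went from 0 to 1 with slide as a block and as a random block (Emr1). The 7 correlated liver pairs became 20 with group means kept, 21 with median centring and 11 without background correction. The causes were not tested.

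Leaving out each array gave, in fat, 10 to 12 for estradiol, 2 for testosterone, 0 to 1 for Sry (1 without XXSry E replicate 4), 0 for sex chromosomes and interactions and 26 to 31 within strata. In liver it gave 8 to 9 for Sry, 4 to 5 for testosterone, 6 to 7 for estradiol, 0 for sex chromosomes and interactions and 29 to 38 within strata. Calls near the threshold were lost most often: liver Emr1 (its second probe) for estradiol in 31 of 60, fat Ctss for estradiol in 20 of 55, the dimmer fat Cd163 probe in 17 of 55 and liver Ctss for testosterone in 12 of 60. The 34 called probe and contrast results were refitted 351 times under other settings, of which 315 kept direction and side of the threshold, 36 fell short and 0 reversed. Leaving out 1 array at a time gave 1970 refits, of which 1890 kept both, 80 fell short and 0 reversed. In 15 refits a result that had not been called passed, 9 of them under other settings. Counting members detected on at least 50% of the arrays, and correlations without the arrays at odds with labels, were added after the data were seen.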

Other observations

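In fat, XY-Sry T replicate 3 held the highest level of all 55 arrays for 4 of the 8 genes, a pattern picked out after the values were seen. It read 11.37 for Cd68, 13.97 for Lgals3, 9.52 for Ctss and 7.03 for Itgam. Its Cd163 at 7.998 was the lowest of the 19 testosterone arrays, and its Csf1r stood at 8.46. Over all 55 arrays, less group means, Cd163 had r = -0.18 with Cd68 and -0.20 with Ctss. The cause of these values was not tested.

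In liver, XY- B replicate 1 held the highest Emr1 of all 60 arrays at 7.76, with Cd68 at 8.12, Csf1r at 8.46 and Lgals3 at 9.82. It belongs to the blank arm and carries no Sry. Its Mrc1, at 10.14, lay inside the blank range of 9.71 to 10.45.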
